A study of Arabidopsis thaliana with 6 samples.

Results

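The genes encoded in the chloroplast genome of Arabidopsis thaliana were followed under 3 stresses, in leaves of 2-week-old plants of Col-0 (the common laboratory accession) and of a mutant in 2 genes, lsm1a lsm1b. A gene was taken when its locus code began with ATCG, the prefix of the chloroplast genome, and 88 of the 20297 genes listed in any file met this rule. The rule itself used no count or ratio, but only genes listed in a file could meet it. It was set with earlier results of these data known. LSM1A and LSM1B are alternative subunits of a cytoplasmic protein ring, LSM1-7, that directs mRNAs to decapping and decay. In the cold treatment, soil-grown plants of both genotypes spent 24 h at 4 °C under 40 µmol m-2 s-1 of light. In the PEG treatment, plants grown on plates were moved for 10 h to medium with 55% polyethylene glycol. The NaCl treatment used plates with 150 mM NaCl, also for 10 h. All plants had been raised in long days under 90 µmol m-2 s-1. There was 1 RNA-seq library for each genotype and stress, 6 in all, so a difference between genotypes within a stress has no replicate check. The labels do not say how many plants a library pooled, and unstressed plants were not analysed here.

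The chloroplast genome keeps a small set of the genes that its cyanobacterial ancestor carried. They encode core subunits of the photosystems, of the cytochrome b6f complex, of ATP synthase and of the NDH complex (a ferredoxin-plastoquinone reductase of cyclic electron flow), the large subunit of Rubisco, and part of the plastid's own ribosome and RNA polymerase. The remaining subunits of each complex come from nuclear genes. Different polymerases read the genome: the bacterial-type plastid-encoded polymerase (PEP), which needs nuclear sigma factors, and a nuclear-encoded phage-type polymerase (NEP). Most genes are transcribed together in units that are cut and trimmed afterwards. Plastid mRNAs carry no cap, and a poly(A) tail marks them for decay rather than protecting them. The labels do not say whether the libraries were selected for poly(A) RNA.

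Neighbouring coding sequences overlap at several places, and a read there belongs to both. Of the 88 members, 24 overlap another member or lie, wholly or in part, in the inverted repeat, a stretch of 26264 bases that the circle of 154478 bases holds in 2 copies. The other 64 have a position of their own. These 3 overlaps are shown because the most abundant transcript unit and both psb and rpl units in the results below run through them. Each is printed in the direction of transcription with 20 bases on either side, from the RefSeq chloroplast sequence of TAIR10.1, and capitals mark the bases that belong to both genes. The first is chloroplast:52640-52683 on the minus strand, where 4 bases end atpB and begin atpE. The next is chloroplast:33700-33792 on the plus strand, with 53 bases shared by psbD and psbC, and the last is chloroplast:83447-83502 on the minus strand, with 16 bases shared by rpl22 and rps3. In every case the capitals open with the start codon ATG of the downstream gene.
atpB-atpE: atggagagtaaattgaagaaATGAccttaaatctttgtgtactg
psbD-psbC: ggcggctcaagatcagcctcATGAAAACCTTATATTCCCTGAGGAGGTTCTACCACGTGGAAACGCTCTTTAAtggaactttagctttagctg
rpl22-rps3: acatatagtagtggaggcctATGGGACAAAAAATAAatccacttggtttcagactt
In atpB-atpE the stop codon of the upstream gene and the start codon of the downstream gene share their bases. Counts of such pairs, and of the repeated genes, cannot be assigned to one member alone. For repeated genes with at least 1000 counts in the pair of copies, the copies differed by a median of 1.87% and at most 11.5% over 24 comparisons.

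By function, 26 members encode ribosomal proteins, 15 photosystem II, 12 the NDH complex, 7 photosystem I or its assembly, 7 cytochrome b6f or cytochrome assembly, 6 ATP synthase, 4 the RNA polymerase, and 11 Rubisco or other proteins. None is an rRNA or tRNA gene. The files listed 85 members for cold, 87 for PEG and 87 for NaCl, and 84 for all 3. Both copies of ycf2, a large envelope-associated protein, were not listed for cold. ATCG00870 and ATCG01270, copies of one another that carry no name in the reference, were listed for PEG alone and for cold and NaCl respectively.

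Total gene counts ranged from 10289392 to 22639128 per library. The mutated gene LSM1A had 206, 246 and 273 counts in Col-0 (cold, PEG, NaCl) and 10, 26 and 12 in the libraries labelled lsm1a lsm1b. LSM1B had 152, 207 and 195 counts against 39, 98 and 439, so in NaCl it was higher in the library labelled lsm1a lsm1b (log2 ratio 1.0, 95% counting interval 0.76 to 1.26), against its label. Directions in NaCl therefore refer to the library labelled lsm1a lsm1b. The summed level of 4 nuclear leaf markers, led by RBCS1A, lay between 17040 and 19769 RPKM (counts scaled to gene length and library total) for the cold libraries. It was 2691 for Col-0 and 3232 for lsm1a lsm1b under PEG, and 10241 and 12655 under NaCl. Of the other tissues checked, 4 root markers summed to 57.1 to 83.0 RPKM in cold and 856 to 1086 on plates, nearly all from PYK10, a beta-glucosidase gene. The 5 seed storage and oil body markers were not listed for cold and summed to 385 and 655 RPKM in PEG and 24.0 and 423 in NaCl, lowest in the Col-0 NaCl library, and the 3 flower markers were listed for no stress.

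The share of all gene counts that fell in chloroplast-encoded genes set the stresses apart. It was 0.411% in the Col-0 cold library (51020 counts) and 0.390% in the lsm1a lsm1b cold library (40117 counts). Under PEG it was 3.18% for Col-0 (652860 counts) and 2.05% for lsm1a lsm1b (369813 counts). Under NaCl it was 1.62% for Col-0 (326540 counts), and the library labelled lsm1a lsm1b had 1.90% (430482 counts). The exact 95% binomial intervals were narrow, for example 3.17% to 3.19% for Col-0 in PEG, and cover counting error only. Both cold libraries lay below all 4 plate libraries, and the genotypes differed in opposite directions in PEG and NaCl. The share in lsm1a lsm1b was 0.949 times that in Col-0 in cold, 0.644 times in PEG and 1.18 times in NaCl. Within Col-0 it was 7.74 times as high in PEG as in cold, and within lsm1a lsm1b 5.26 times. Medium, duration and the 4 °C treatment set cold apart from the plate stresses and cannot be told apart. Light during the treatment is given for cold alone, so whether it differed on plates is not known. In bulk leaf RNA, fewer plastid-bearing cells and less chloroplast RNA per cell cannot be told apart either. Mitochondrial genes, the other organelle genome, took 0.00427% to 0.0350% of counts.

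**Figure D1:**
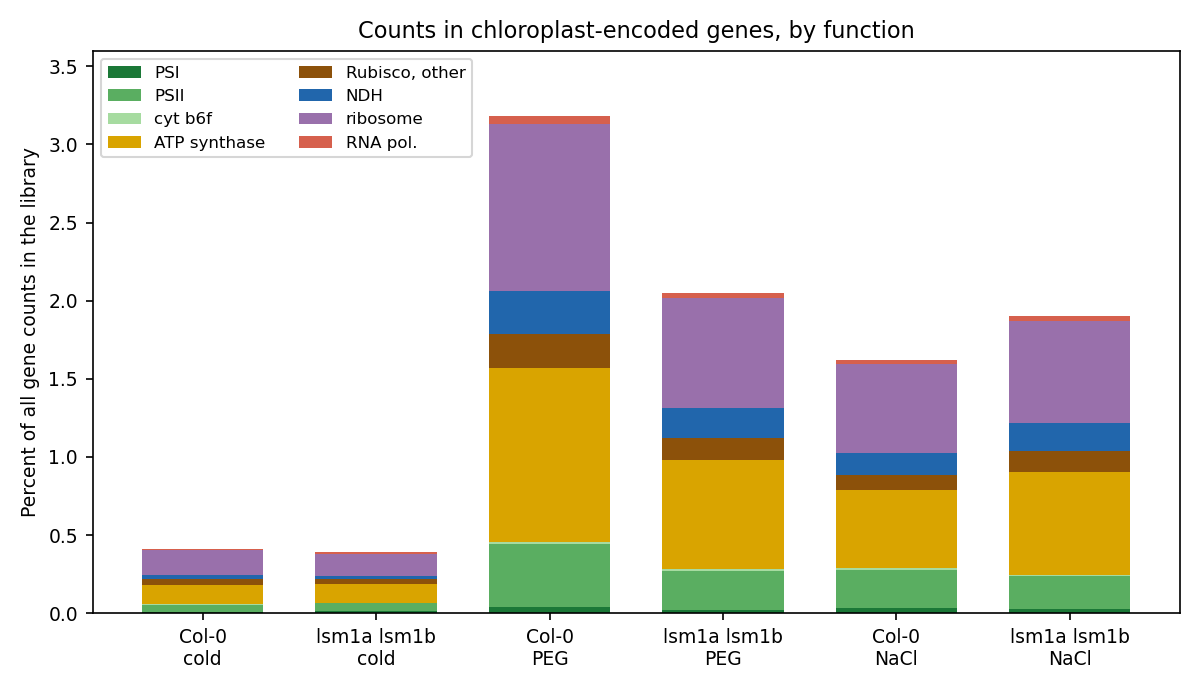
Percent of all gene counts in chloroplast-encoded genes (vertical axis) in each of the 6 libraries, with bars stacked by function group and 1 library per bar. The cold bars reach 0.411% and 0.390%, and the Col-0 PEG bar is the highest at 3.18%.

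A few genes held a large part of this pool. The atpB gene, which encodes the beta subunit of the ATP synthase head, held 20.5% to 23.2% of chloroplast counts and was first in every library. Together the 5 members with most counts took 45.7% to 49.99%. ATP synthase genes held 29.9% to 35.0% of the pool, ribosomal protein genes 33.8% to 39.3%, photosystem II 10.9% to 15.1%, the NDH complex 4.90% to 9.27% and photosystem I 1.02% to 2.94%.

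Per length, small genes led. The atpE gene, for the epsilon subunit of ATP synthase, had the highest mean level over the 6 libraries. Its levels (Col-0, then lsm1a lsm1b) were 904 and 864 RPKM for cold, 8889 and 5641 for PEG, and 3795 and 5311 for NaCl. In cold it was below psbM, a small photosystem II subunit, which had 1832 and 1480 RPKM there. The rpl32 gene, for a protein of the large ribosomal subunit, led the ribosomal group with 1638 and 1314 RPKM in cold and 2259 to 5346 on plates. In the NDH complex, ndhK was highest, from 110 RPKM (lsm1a lsm1b cold) to 2189 (Col-0 PEG). In the RNA polymerase, rpoA was highest, from 44.8 (Col-0 cold) to 361 (Col-0 PEG). In the cytochrome group petA (cytochrome f), at up to 86.8 RPKM, had the highest mean level, 42.3 against 41.3 for petN. The petN gene was higher than petA in both cold libraries and both lsm1a lsm1b plate libraries, and lower in the Col-0 plate libraries. Among other proteins clpP, the plastid-encoded subunit of the Clp protease, had the highest mean level, from 20.9 to 322 RPKM. In both cold libraries it lay below rbcL, for the large subunit of Rubisco. In photosystem I the small subunit gene psaJ led, from 294 to 848 RPKM. Each of ndhK, rpoA, petA, clpP and psaJ had its highest level in the Col-0 PEG library.

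The 2 genes whose mRNAs are usually described as abundant in green leaves stood lower in the order of RPKM. Since the labels do not say whether poly(A) RNA was selected, this order need not be that of mRNA abundance. The psbA gene encodes the D1 protein of the photosystem II reaction centre, and rbcL the large subunit of Rubisco. Levels of psbA (Col-0, then lsm1a lsm1b) were 93.3 and 169 RPKM for cold, 193 and 96.4 for PEG, and 124 and 102 for NaCl. By level it ranked 22 and 10 among the members for cold, 38 and 40 for PEG, and 35 and 40 for NaCl. Levels of rbcL were 33.2 and 54.4 RPKM for cold, 96.3 and 32.5 for PEG, and 67.4 and 40.5 for NaCl, with ranks between 29 and 57. Their share of the pool was larger in cold. The average of both genotypes was 3.50% in cold against 0.631% on plates for psbA, and 1.59% against 0.393% for rbcL. The psbD gene, for the D2 protein that pairs with D1, differed in the opposite direction, with an average of 1.34% of the pool in cold and 5.35% on plates. These are levels side by side, with no test, since cold and plate plants differ in more than the stress.

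In cold, the genotypes differed little and in both directions. The measure here is the log2 ratio of lsm1a lsm1b over Col-0 after TMM scaling, with a 95% interval for counting error, and a gene counts as higher or lower when it differs at least 2-fold and has at least 5 CPM (its count scaled to the library total) in the higher library. By this rule 0 of the 59 members past the level were higher and 0 lower, against 8.26% and 5.13% of all genes past the level. The median over the 85 listed members was -0.01, the same as over all listed genes, with 44 below 0 and 41 above. The highest value was that of psbF, a subunit of cytochrome b559, at 1.01 (17 and 32 counts, under the level limit), and the lowest that of ATCG01270 at -0.91 (4 and 1 counts).

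Several photosystem genes lay above 0 in cold with intervals that do not reach it. The psaA gene, one of the pair of large photosystem I core proteins, had 232 counts in Col-0 and 387 in lsm1a lsm1b (log2 ratio 0.91, 0.68 to 1.16). Its partner psaB had 238 and 311 counts (0.56, 0.32 to 0.82). Counts of psbA were 1231 and 1844 (0.76, 0.66 to 0.87), and those of rbcL 593 and 806 (0.62, 0.47 to 0.78). By group, the medians were 0.28 for photosystem I, 0.36 for photosystem II and 0.37 for the RNA polymerase. They were -0.29 for the NDH complex and -0.20 for ribosomal proteins. In photosystem I 3 of 7 genes were past the level limit, and the interval lay wholly above 0 for 2. In photosystem II 9 of 15 were past it, with intervals wholly above 0 for 5 and wholly below for 2. In the cold NDH group ndhK was lower in lsm1a lsm1b by value, with 1347 and 768 counts (-0.63, -0.76 to -0.50). None of these reached 2-fold.

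PEG gave the widest difference between genotypes. All 87 listed members had a lower value in lsm1a lsm1b than in Col-0, and for 83 the counting interval lay wholly below 0. By the 2-fold rule 22 of the 82 members past the level were lower and 0 higher, where 3.65% of all genes past the level were lower and 3.6% higher. The median was -0.74, and that of all listed genes 0.01. Of the 64 members with a position of their own, 60 were past the level and 16 of these were lower. The members are transcribed from one genome in one pair of libraries and are not replicates, so the shared direction is 1 observation about 2 libraries. In the same pair the summed leaf and seed markers were higher in lsm1a lsm1b (values above). Single markers went both ways: of the seed list CRU3, OLEO1 and OLEO2 were higher and SESA1 (88.8 and 19.3 RPKM) and SESA2 (105 and 51.5) lower, and of the leaf list RCA was at 255 and 247. Their part in the result was not tested.

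The photosystems held several of the lower members. In photosystem I 3 of 6 past the level were lower, with a group median of -1.23. The psaA gene had 2544 counts in Col-0 and 968 in lsm1a lsm1b (-1.31, -1.42 to -1.20), and psaB 2729 and 1093 (-1.23, -1.34 to -1.13). The assembly factor gene ycf4 had 361 and 131 (-1.36, -1.68 to -1.08). The intervals of these 3 genes overlap one another. The gene psaC, for the iron-sulfur subunit that passes electrons to ferredoxin, had 95 and 32 counts (-1.43) but stayed under the level limit. In photosystem II 4 of 15 were lower, with a median of -0.84. Counts of psbA were 4199 in Col-0 and 1847 in lsm1a lsm1b (-1.10, -1.18 to -1.02). The others were psbM with 10594 and 4669 counts (-1.10), psbN, an assembly factor gene read from the opposite strand of its neighbours, with 451 and 189 (-1.16), and psbE, a subunit of cytochrome b559, with 1558 and 721 (-1.02). Whether counting used strand is not stated in the labels, so reads of psbN and of the unit across from it cannot be told apart.

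The other electron transport genes and Rubisco's large subunit gene spanned a wide range. In the cytochrome group 3 of 5 were lower: petD (subunit IV) with 540 and 214 counts (-1.24), petB (cytochrome b6) with 458 and 198 (-1.12) and petA with 1716 and 801 (-1.01, -1.14 to -0.89). The value of ccsA, for a protein of haem attachment to cytochromes, was the nearest to 0 of all 87, with 208 and 178 counts (-0.14, -0.44 to 0.16). In ATP synthase 2 of 6 were lower. They were atpA, the alpha subunit of the head, with 1755 and 648 counts (-1.35, -1.48 to -1.22), and atpF, a stalk subunit in the membrane, with 586 and 270 (-1.03, -1.25 to -0.82). Rubisco's rbcL had 2846 and 844 counts (-1.67, -1.78 to -1.56) and was the lowest member with more than 1000 counts. It was 1 of 9 lower in its group, whose median was -0.69, with clpP at -0.60 (3908 and 2433 counts).

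In the NDH complex 4 of 12 were lower, ndhE farthest with 142 and 38 counts (-1.76, -2.37 to -1.29). The gene ndhB lies in the inverted repeat and its rows had 1795 and 684 counts (-1.30) and 1671 and 744 (-1.08). The most abundant NDH gene, ndhK, had 30461 and 19368 counts (-0.57, -0.59 to -0.54). Of 25 ribosomal protein genes past the level 5 were lower: rpl20 at -1.12, both rows of rps7 at -1.11 and -1.09, and the repeat rows of rps12 at -1.23 and -1.21 (17524 and 7033 counts, and 17275 and 7058). The row for the first exon of rps12, a gene whose mRNA is joined from separate transcripts, had 572 and 346 counts (-0.64). The RNA polymerase group had 0 of 4 lower. Its values ran from rpoC2 at -0.74 (880 and 496 counts) to rpoA at -0.56 (7328 and 4672), and its median was -0.65, near that of the ribosomal proteins at -0.62. Members mainly read by PEP had a median of -0.92, those mainly read by NEP -0.69, and the others -0.66.

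**Figure D2:**
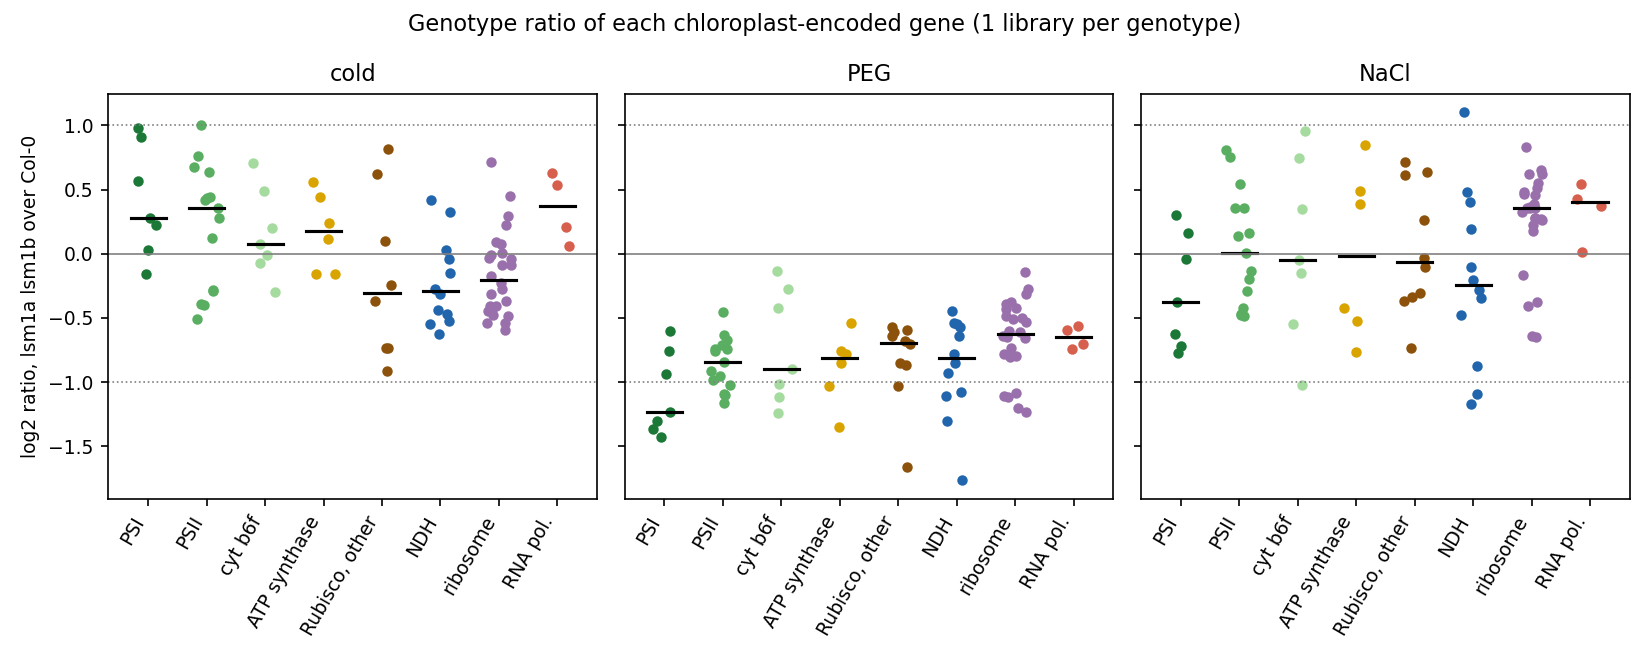
Log2 ratio of lsm1a lsm1b over Col-0 (vertical axis) for every listed member by function group, 1 panel per stress, with a point per gene, a bar at the group median and dotted lines at 2-fold. All points of the PEG panel lie below 0, with group medians from -1.23 (photosystem I) to -0.62 (ribosomal proteins), while cold and NaCl points lie on both sides.

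In NaCl the members split. The library labelled lsm1a lsm1b was higher for 49 of 87 members and lower for 38, with a median of 0.18 against 0.00 for all listed genes. The counting interval lay wholly above 0 for 42 and wholly below for 27. By the 2-fold rule 1 of 79 was higher and 3 lower, where 5.5% and 4.46% of all genes past the level were. The higher one was ndhF, which encodes a membrane subunit of the NDH complex and crosses a repeat border, with 839 counts for Col-0 and 2025 for the other library (1.10, 0.99 to 1.22). The lower ones were ndhB, with 1593 and 835 counts (-1.09) and 1587 and 791 counts (-1.17) in its rows, and petB with 434 and 238 (-1.02, -1.27 to -0.80). Subunits of a single complex thus lay at both ends of the range.

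The function groups of NaCl differed in sign. Ribosomal proteins had a median of 0.35 with 21 of 26 above 0, and the 5 below 0 were rpl33 and the repeat rows of rps7 and rps12. All 4 RNA polymerase genes were above 0 by value, with a median of 0.40. Counts were 491 and 805 for rpoB (0.55, 0.38 to 0.71), 558 and 811 for rpoC2 (0.37) and 3251 and 4893 for rpoA (0.43). The interval of rpoC1 reached across 0, with 254 and 287 counts (0.01, -0.24 to 0.26). Photosystem I had a median of -0.37, with psaA at 2519 and 1829 counts (-0.63, -0.71 to -0.54) and psaB at 2715 and 1780 (-0.77, -0.86 to -0.69). For rbcL the counts were 1958 and 1320 (-0.73, -0.84 to -0.63), and for psbA 2659 and 2443 (-0.29, -0.37 to -0.21). The ATP synthase genes atpB and atpE, which held most counts, and ndhK were on the other side of 0. Counts of atpB were 66999 and 98034 (0.38, 0.37 to 0.40), those of atpE 30564 and 47970 (0.49) and those of ndhK 14615 and 22898 (0.48). The medians of photosystem II, the cytochrome group, ATP synthase and Rubisco with other proteins all lay between -0.07 and 0.00.

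Photosystem II members lay on both sides of 0 in NaCl, 8 above and 7 below. The small subunit genes psbI (819 and 1547 counts, 0.75), psbJ (249 and 489, 0.80) and psbK (531 and 870, 0.55) were above 0. The core antenna genes psbB (1837 and 1486, -0.47) and psbC (17034 and 13734, -0.48) and the reaction centre gene psbD (20164 and 19694, -0.20) were below, and so were the small subunit genes psbT (-0.42), psbH (-0.49) and psbZ (-0.13). In PEG the group lay between -0.45 (psbZ) and -1.16 (psbN). The difference between these stresses was not tested.

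Among the other proteins, cemA had a negative value in each stress. Its counts were 160 and 84 for cold (-0.74, -1.15 to -0.36), 668 and 345 for PEG (-0.86), and 434 and 377 for NaCl (-0.37). The longer row of ycf1, a large envelope protein gene that crosses a repeat border, had 3555 and 1881 counts for cold (-0.74), 35224 and 21242 for PEG (-0.64), and 13349 and 24516 for NaCl (0.71). It was thus lower in lsm1a lsm1b in cold and PEG and higher in NaCl by value. For matK, which encodes a splicing factor of plastid introns, the ratios were 0.10, -0.70 and -0.34 in the same order. The acetyl-CoA carboxylase gene accD had 0.82 (10 and 17 counts), -0.68 and -0.30.

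Although their levels of difference were unlike, the order of the members was similar in PEG and NaCl. Across 86 members listed in both, the PEG and NaCl ratios had a Spearman correlation of 0.66 and a Pearson correlation of 0.69, and across the 64 members with a position of their own the values were 0.66 and 0.69. The 2 pairs share no library, but the members share transcription units, so these are descriptions. Genes at the low end of both were ndhE, rbcL, atpA, psaA, psaB, ndhB and petB. At the high end of both were ccsA (-0.14 in PEG, 0.95 in NaCl with 99 and 217 counts) and rps3 (-0.14 and 0.62, with 8253 and 14255 counts in NaCl). The cold ratios ran the other way if anything, with Spearman values of -0.15 against PEG (84 members) and -0.32 against NaCl (85 members).

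**Figure D3:**
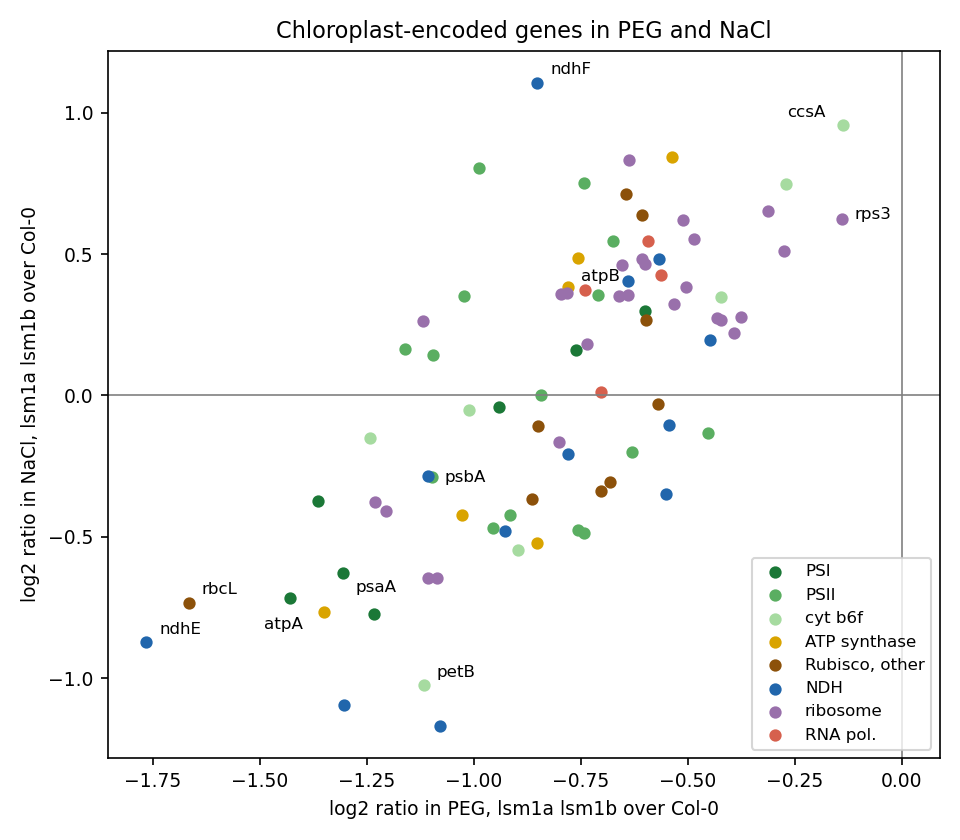
Log2 ratio of lsm1a lsm1b over Col-0 in PEG (horizontal axis) and in NaCl (vertical axis), with a point per member coloured by function group. All points lie left of 0 in PEG. The lowest on both axes include ndhE and rbcL, ccsA and rps3 lie at the upper right, and ndhF stands highest in NaCl at 1.10.

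Ratios taken relative to the chloroplast pool, by scaling each library to its chloroplast sum, separate the size of the pool from its makeup. On this scale the PEG median was -0.02 and 1 member, ndhE at -1.05, was at least 2-fold lower. Photosystem I still had the lowest group median in PEG (-0.50, 6 of 7 members below 0), and the ribosomal group was at 0.11 with 17 of 26 above 0. In NaCl the pool-relative medians were -0.60 for photosystem I, -0.48 for the NDH complex and 0.12 for ribosomal proteins. In cold photosystem I was at 0.41 with 7 of 7 above 0, and photosystem II at 0.51. Of these 7 photosystem I genes, 3 were past the level limit in cold. There psaA held 0.455% of the pool in Col-0 and 0.965% in lsm1a lsm1b, and psaB 0.466% and 0.775%. The psaJ gene held 1.02% in both. By summed counts photosystem I held 2.06% of the cold pool in Col-0 and 2.94% in lsm1a lsm1b. Relative to the pool, photosystem I genes therefore held a smaller part in lsm1a lsm1b in both plate stresses and a larger part in cold, in 1 library each.

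Genes of one transcription unit did not always have like ratios. In the unit of rps2, atpI, atpH, atpF and atpA, given in order of transcription, the PEG ratios were -0.31, -0.54, -0.85, -1.03 and -1.35. In NaCl they were 0.65, 0.84, -0.52, -0.42 and -0.77. In NaCl the first pair of genes was thus higher, and the last 3 lower, in the mutant-labelled library. NaCl counts were 847 and 1706 for atpI, the membrane subunit a, and 166 and 129 for atpH, the proton-carrying ring subunit next to it. The unit of psaA, psaB and rps14 had NaCl ratios of -0.63, -0.77 and 0.47 and cold ratios of 0.91, 0.56 and -0.28. Its last gene, for a ribosomal protein, lay on the other side of 0 from both photosystem genes in each, with 1577 and 2442 counts in NaCl and 472 and 343 in cold.

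In 3 short units the spread was small in each stress. In ndhC-ndhK-ndhJ the largest gap between genes was 0.16 in cold, 0.19 in PEG and 0.29 in NaCl. In atpB-atpE, whose overlap is printed above, it was 0.00, 0.02 and 0.10, and in psbD-psbC 0.01, 0.13 and 0.28. In the long ribosomal unit from rpl23 to rpoA, 13 rows lay between 0.27 and 0.62 in NaCl, between -0.80 and -0.14 in PEG, and between -0.48 and 0.45, on both sides of 0, in cold. The unit of psbB, psbT, psbH, petB and petD spanned 0.88 in cold, 0.50 in PEG and 0.87 in NaCl, with petB lowest in NaCl and petD in PEG. All 7 genes of the unit that runs from ndhH through psaC to ndhD were below 0 in both plate stresses, from -0.54 (ndhH) to -1.76 (ndhE) in PEG and from -0.10 (ndhH) to -0.87 (ndhE) in NaCl, a span of 1.22 and 0.77. In cold they lay on both sides of 0. The psbE-psbF-psbL-psbJ unit, in order, had -1.02, -0.84, -0.71 and -0.99 in PEG and 0.35, 0.00, 0.35 and 0.80 in NaCl. Its span in cold, 1.30, was the widest of the 11 units there, from -0.29 (psbJ) to 1.01 (psbF). Reads were counted over annotated genes, so a value does not tell a processed transcript from a longer one.

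**Figure D4:**
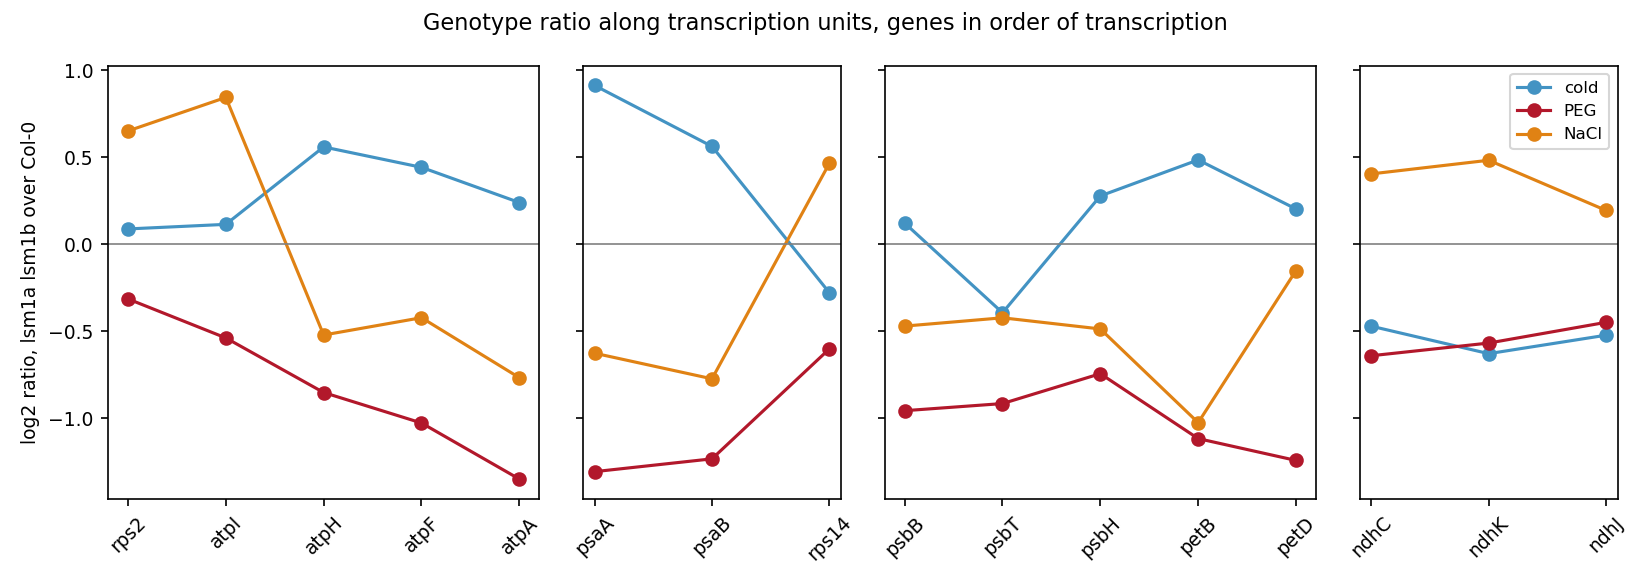
Log2 ratio of lsm1a lsm1b over Col-0 (vertical axis) for genes in order of transcription (horizontal axis) in 4 transcription units, with a line per stress. In the first panel the NaCl line drops from 0.84 at atpI to -0.52 at atpH, in the second it climbs from -0.77 at psaB to 0.47 at rps14, and the ndhC-ndhK-ndhJ lines stay within 0.29.

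Base composition ran weakly with the ratios. GC content and ratio had a Spearman correlation of 0.33 in cold (85 members), -0.20 in PEG and -0.19 in NaCl (87 members each). Across the 64 members with a position of their own the values were 0.33, -0.13 and -0.03. Nuclear genes without introns had -0.04, -0.10 and -0.11 in the same pairs. Split at the median GC content of 36.8%, the members above and those below it all lay under 0 in PEG, with medians of -0.79 and -0.70. The same medians were 0.08 and -0.09 in cold and -0.01 and 0.27 in NaCl. The part of base composition in the ratios was not tested.

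Taking the stresses as repeats, no member passed the test for genotype. edgeR's quasi-likelihood test over the 6 libraries, with stress as a block and Benjamini-Hochberg adjustment over 16927 genes, called 0 higher and 0 lower of the 84 members listed in all 3 stresses, where it called 0.112% of all genes higher and 0.1% lower. At an unadjusted p under 0.05 there were 8 members, and 15.7% of all genes. The 8 rows belong to cemA, an envelope protein, psbT, ndhE, rps7, rps12 and ndhB. The median log2 fold change of the members was -0.20, and 73 were negative. That direction was not held in each stress: 44 of 85 listed members were below 0 in cold, 87 of 87 in PEG and 38 of 87 in NaCl. For rbcL the log2 fold change was -0.60 (SE 0.45, adjusted p = 0.57 by edgeR), with log2 ratios of 0.62 in cold, -1.67 in PEG and -0.73 in NaCl. For psbA it was -0.21 (SE 0.37, adjusted p = 0.82 by edgeR). DESeq2 called 1 member lower, a row of rps7 (-0.73, adjusted p = 0.033), and limma-voom called 0, with 12 at an unadjusted p under 0.05. The 2 rows of rps7 had edgeR log2 fold changes of -0.71 (SE 0.19) and -0.72 (SE 0.18), with adjusted p of 0.21 and 0.19.

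The cold pair decides this count. Without it, edgeR's test on the 4 plate libraries called 7 members lower and 0 higher of 84, where it called 2.5% of all genes lower and 2.38% higher. These were both rows of ndhB (-1.20 and -1.12, adjusted p = 0.011 and 0.013), petB (-1.07, adjusted p = 0.027), atpA (-1.06), psaB (-1.0), rbcL (-1.20) and psaA (-0.96). Each of these genes was lower by value in lsm1a lsm1b in both plate pairs, for instance ndhB from 1795 to 684 counts in PEG and from 1593 to 835 in NaCl. In this fit 1 pair per stress stands for a replicate, and the NaCl pair includes the library in which LSM1B went against its label.

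NaCl was also set against PEG in the 6-library fit, with genotype as a term. Of 84 members 0 were called higher in NaCl and 0 lower, where 5.33% and 3.21% of all genes were, and 3 had an unadjusted p under 0.05, against 32.2% of all genes. They included psbM (-0.95, SE 0.33, adjusted p = 0.12 by edgeR) and rpoA (-0.75, adjusted p = 0.14). The median log2 fold change, NaCl over PEG, was -0.47, and 80 of 84 were negative. It was -0.85 with the Col-0 libraries alone and -0.01 with the lsm1a lsm1b libraries alone. DESeq2 called 1 member lower in NaCl, psbM (-0.96, adjusted p = 0.044), with 6 at an unadjusted p under 0.05 and no adjusted p for 6 members. limma-voom called 0.

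Nuclear genes for the same complexes had positive values for NaCl over PEG. Of the 84 members 0 were called in either direction, and their median differed between the genotypes (values above). Of 35 nuclear subunits of the photosystems, cytochrome b6f, ATP synthase, Rubisco and NDH, 13 rose in NaCl relative to PEG and 0 fell by edgeR's test, where 5.33% and 3.21% of all genes did, with a median of 1.05 and no negative value. Among them were PSAD-2, a stromal subunit of photosystem I (2.24, adjusted p = 0.028), PSBY of photosystem II (2.17, adjusted p = 0.026), RBCS2B, a small subunit of Rubisco (2.19, adjusted p = 0.027), and ATPD of ATP synthase (1.44, adjusted p = 0.030). The chloroplast-encoded partners had values of -0.23 (rbcL), -0.10 (atpA), 0.19 (psaA) and 0.12 (psaB). Within PEG the nuclear subunits also stood apart from the members, with 31 of 35 above 0 and a median of 0.32. One was at least 2-fold higher in lsm1a lsm1b, RBCS3B (1.09), where 3.6% of all genes past the level were. In cold 2 of 35 were at least 2-fold lower, NdhM (-1.24) and NdhO (-1.42), near the 5.13% of all genes, and the median was -0.22.

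Genes that act on plastid transcripts were looked at in the same way. Of 20 nuclear genes of plastid transcription, 1 fell in NaCl relative to PEG, SIGE (the sigma factor SIG5, known for transcribing psbD from its light-responsive promoter), at -1.81 (adjusted p = 0.049 by edgeR). Its counts were 1639 and 812 in PEG (Col-0, lsm1a lsm1b) and 401 and 374 in NaCl. Over all genes 3.21% were called lower, so 1 of 20 is near the background. The list median was 0.39. For psbD itself the value was -0.60 (SE 0.31, adjusted p = 0.24). Within a stress 1 gene of this list passed the 2-fold rule, SIG2, another sigma factor, with 1115 and 462 counts in cold (-1.09, -1.25 to -0.93), where 5.13% of all genes past the level were lower. Of 14 genes of plastid RNA decay and stability, 4 rose in NaCl relative to PEG and 0 fell, where 5.33% and 3.21% of all genes did. These 4 encode RNA-binding proteins: CP33 (1.35), CP29 (1.25), CRB (also called CSP41B, 1.15) and CSP41A (0.82). None of the 14 passed the 2-fold rule between genotypes in any stress. Of all genes past the level, 3.6% to 8.26% were higher and 3.65% to 5.13% lower, depending on the stress. These lists were described by counts and medians and were not tested as lists.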

How the data were processed

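Gene-level RNA-seq values of 6 leaf libraries were used, grouped by genotype and stress as labelled. Each deposited file holds read counts as whole numbers, 1 value per gene, and these were used as deposited. The gene lengths in the files served for RPKM. Per the submitters' processing notes TAIR10, TopHat2 and DESeq2 were used. The counting tool, the strand and the treatment of reads with several positions are not given in the sources used here. Members were named by matching the files' coordinates to the RefSeq annotation of TAIR10.1 (81 of 88 with the same start and end, 2 unnamed). The members, their groups, the transcription units, the nuclear lists and the rules were chosen with earlier results of these data known.

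TMM factors from edgeR 4.0.16 (R 4.3.3) scaled the 2 libraries of a stress, and ratios used a prior count of 2, with exact binomial (Clopper-Pearson) 95% intervals. Intervals cover counting error only, since reads without molecular identifiers are not independent molecules. Across stresses, edgeR's two-sided quasi-likelihood test was fitted to the 16962 genes listed for all 3 stresses (filterByExpr left 16927) with stress and genotype as terms, adjusted p under 0.05. The stress pairs stand in for replicates, and nothing says what plants a library pooled. Named by rule were rbcL, psbA, the member of each function group with the highest mean RPKM, up to 2 members per group and stress past the 2-fold rule in each direction, and up to 4 genes per nuclear list. Other genes were chosen after their values were seen. As alternatives there were DESeq2 1.42.0, limma-voom (limma 3.58.1), other scalings, prior counts, limits and filters, and libraries left out. The functions were tested on simulated counts. Promoter motifs were not searched.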

Additional observations from a re-analysis of the deposited data

Results flagged for a closer look

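Several members at least 2-fold apart in one stress had a log2 ratio of the opposite sign in another, with a counting interval that excludes 0. With 1 library per genotype and stress, none of these differences between stresses was tested. In PEG against cold, rbcL was at -1.67 and 0.62, psaA at -1.31 and 0.91, psaB at -1.23 and 0.56, psbA at -1.10 and 0.76, and petB at -1.12 and 0.49. The gene petB was also at -1.02 in NaCl against 0.49 in cold. In PEG against NaCl, psbM was at -1.10 and 0.14, psbE at -1.02 and 0.35, and rpl20 at -1.12 and 0.26. The gene ndhF was at 1.10 in NaCl against -0.55 in cold and -0.85 in PEG. Every flag that sets NaCl apart rests on the library labelled lsm1a lsm1b in which LSM1B was high.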

How the results depend on the processing

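Scaling to the chloroplast sum removes any shared change of the pool: members at least 2-fold lower in PEG went from 22 to 1 and the PEG median to -0.022, and in NaCl 0 were higher and 5 lower. On that scale the NaCl-over-PEG median was 0.12. It turned psbA (0.0064 for genotype, 0.27 for NaCl over PEG) and rbcL (0.45 for NaCl over PEG) positive. With a fold limit of 1.5, 6 members were higher and 3 lower in cold, 61 lower in PEG, and 11 higher and 9 lower in NaCl. In cold 1 member was higher with total count scaling, with the chloroplast sum or with a level limit of 1 CPM. Without members of shared or overlapping position, 0 were higher and 1 lower in NaCl. DESeq2 called 1 member lower for genotype and 1 lower in NaCl than PEG, against 0 by edgeR. Leaving out a stress pair gave 0 to 7 members lower for genotype and medians of -0.44 to 0.073, with psbA between -0.69 (without the cold pair) and 0.26 (without the PEG pair). The NaCl-over-PEG median was -0.85 with the Col-0 libraries alone and -0.013 with lsm1a lsm1b alone. For psbA these values were -0.72 and 0.10, and for rbcL -0.60 and 0.34. The cause of these moves was not tested except where the scaling sets it. The other 131 values were counts within 1.5 times the main value and medians within the median counting interval or standard error. For medians the sign was not checked. With nuclear genes alone as the denominator, the chloroplast share for Col-0 in PEG was 3.29%, above its interval of 3.17% to 3.19%. The other plate shares also lay above their intervals, and the cold shares stayed within theirs. The genotype test already paired the libraries by stress. No paired analysis by replicate number was possible because the labels give none. Members with few counts, such as psaC and ndhE, had wide counting intervals, for ndhE -2.30 to 1.05 in cold, where the chloroplast share of counts was lowest.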

Other observations

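Codes with no name in the reference were near the limit of listing. ATCG00870 had 13 and 5 counts in PEG (Col-0, lsm1a lsm1b), and ATCG01270 had 4 and 1 counts in cold and 4 and 8 in NaCl. Of 60 mitochondrial genes, 24 were listed for cold and 55 each for PEG and NaCl. Their median log2 ratio was -0.01 in cold, 0.03 in PEG and 0.38 in NaCl. In PEG 28 of the 55 were above 0, where all 87 chloroplast-encoded genes were below. Most mitochondrial genes had few counts: in PEG 11 of 55 were past 5 CPM, against 82 of 87 chloroplast-encoded genes. The counting interval of the mitochondrial genes lay wholly below 0 for 5 and wholly above for 10. Past 5 CPM were 1 of 24 in cold and 9 of 55 in NaCl.

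Levels of the members kept much the same order in every library. Across members, the log2 RPKM values of any pair of libraries had a Spearman correlation of at least 0.89, lowest between a cold and a plate library. Across the 64 members with a position of their own the lowest value was 0.84, between the lsm1a lsm1b libraries of cold and NaCl. The average pool share of psbM was 4.33% in cold and 1.28% on plates, and that of rpl32, for a protein of the large ribosomal subunit, was 5.85% and 2.58%. The opposite held for ndhC (0.402% and 1.28%) and rps2 (0.0388% and 0.140%).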
